A study of Rattus norvegicus with 4 samples.

Results

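The expression of 9 genes of the TGF-beta, CCN and ID families was followed in rat NRK-52E cells, an established epithelial line from the kidney tubule, after injury by hydrogen peroxide (H2O2). They are the ligands Tgfb1, Tgfb2, Tgfb3 and Gdf15, the matricellular genes Ccn1 and Ccn2, and the inhibitors of differentiation Id1, Id2 and Id3. The genes were taken by name, each through the RefSeq accession of its probes, and a gene with several probes was represented by the brightest. All 9 had a named probe, of 8963 named genes on the array. On the current rat assembly, GRCr8, Tgfb1 and Ccn2 lie on chromosome 1, Ccn1 on 2, Id1 on 3, Id3 on 5, Tgfb3 and Id2 on 6, Tgfb2 on 13 and Gdf15 on 16. The 4 samples, 1 per condition, were cultures exposed for 1 h to 0 (control), 0.003, 0.006 or 0.009% H2O2 in DMEM once confluent, then washed and kept for 12 h in medium free of serum. Every culture, the control included, therefore went without serum for those 12 h, and nothing in the labels says that cultures were pooled or repeated. By its label each culture held this 1 line, without the other cells of a kidney. The series set out to find molecules from dying cells that make their neighbours divide, and ligands of this family are candidates for such signals.

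TGF-beta ligands are secreted in a latent form and, once released from it, bind type I and type II receptor kinases, which phosphorylate SMAD2 and SMAD3. Bone morphogenetic proteins (BMPs), of the same superfamily, act through SMAD1, SMAD5 and SMAD9, and the Id genes are their classical direct targets. In the kidney TGF-beta is best known as a driver of fibrosis and as a brake on the growth of epithelial cells. CCN proteins are secreted and bind integrins and matrix. CCN2, also called connective tissue growth factor, is a target of both TGF-beta and the mechanosensitive YAP and TEAD complex, and CCN1, also called CYR61, is a target of YAP and an immediate early gene. ID proteins have the helix-loop-helix of E proteins without the basic region next to it, and so bind E proteins and keep them off DNA.

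Each array had 43379 noncontrol spots, none of them saturated, and 51.8 to 54.9% of the probes were well above background. Levels are log2 signals relative to the 75th percentile of the array, which was 180 in the control and 168, 158 and 121 at 0.003, 0.006 and 0.009%. The error given with a value is the scanner software's spot error, which covers the reading of the spot and not the spread between cultures. No dose had a second array, so no spread between cultures could be measured, and 2-fold serves as a mark of size rather than as a test. Fewer living cells and less RNA per cell cannot be told apart in such samples. Of 14 tubule epithelium markers on the array, 7, 9, 9 and 8 were well above background at 0, 0.003, 0.006 and 0.009%, with a summed level of 63.2, 58.9, 46.9 and 41.0 times the 75th percentile. That sum was mostly Krt8, whose log2 level was 5.89 in the control and whose differences were -0.09, -0.44 and -0.68. Over the 10, 10 and 9 epithelial markers compared the median log2 difference was 0.31, 0.46 and 0.79. Of these 2, 3 and 3 were at least 2-fold higher, against 16.1%, 14.8% and 13.8% of all named genes. The keratin Krt18 was among them (4.65-fold, 6.76-fold and 8.55-fold), from a weak control log2 level of -3.95. The lowest control signal well above background was at -4.14. At each dose 1 marker was at least 2-fold lower, against 12%, 8.03% and 5.14% of named genes. It was the water channel Aqp1 (4.31-fold, 3.6-fold and 2.51-fold). Epcam, Cldn7 and Pax8 were not well above background on any array. The 4 arrays shared 1 slide.

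At 0.003% H2O2, 2 of the 9 genes were at least 2-fold above the control (22.2%) and 5 at least 2-fold below it (55.6%). Among 5681 named genes compared at this dose, 16.1% stood that far above the control and 12% that far below it. At 0.006% the counts were again 2 higher and 5 lower, against 14.8% and 8.03% of 5640 named genes. At 0.009% they were 2 higher and 3 lower (33.3%), against 13.8% and 5.14% of 5832 named genes. The median log2 difference of the 9 genes was -1.08, -1.08 and -0.67 over the 3 doses, and that of the named genes was 0.01, -0.01 and 0.05. The higher genes were Gdf15 and Ccn1 at each dose. Tgfb3, Tgfb1, Ccn2, Id1 and Id3 were the lower ones, of which Tgfb1 and Tgfb3 lay within 2-fold of the control at 0.009%. Tgfb2 and Id2 lay within 2-fold at every dose.

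**Figure D1:**
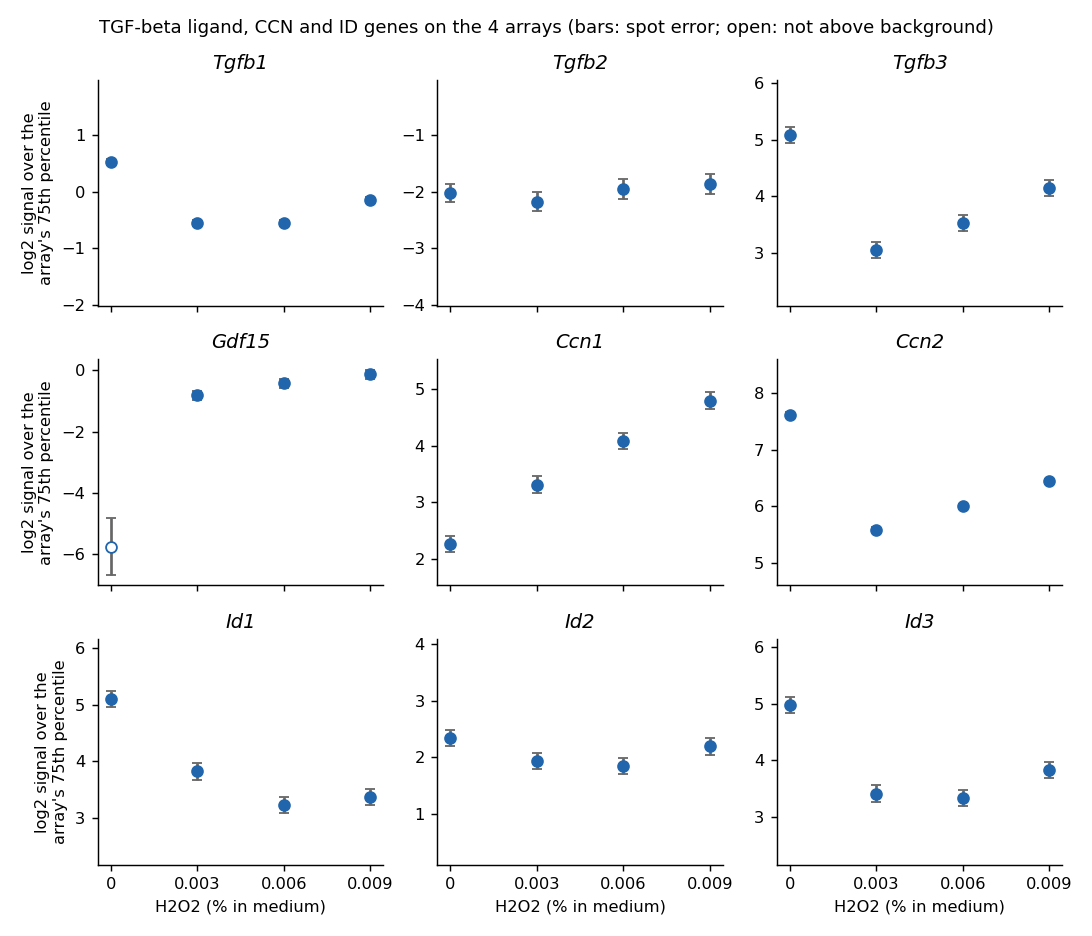
Log2 signal of the 9 genes over the 75th percentile of each array (vertical axis), by dose of H2O2 (horizontal axis). Each point is 1 array and its bar the spot error, each panel has its own vertical range, and the open point is not well above background. Ccn1 stands higher at each dose than at the one below it, and Tgfb3, Ccn2, Id1 and Id3 stand highest in the control.

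Tgfb3, a ligand whose loss in mice causes cleft palate, spanned more than the other TGF-beta isoforms. Its log2 level was 5.08 in the control, then 3.04, 3.53 and 4.14 at 0.003, 0.006 and 0.009% H2O2. The control array was the highest, and the lowest dose was the lowest. Tgfb3 was 4.09-fold below the control at 0.003% (-2.03 ± 0.20), 2.93-fold at 0.006% (-1.55 ± 0.20) and 1.92-fold at 0.009% (-0.94 ± 0.20). Only 61 of 5681 named genes were lower relative to the control than Tgfb3 at 0.003%, and 363 of 5832 were at 0.009%. All gaps between neighbouring levels of Tgfb3 exceeded 2 spot errors, the smallest being 0.48 ± 0.20 between the middle and the lowest dose. That spacing of the doses did not hold under spike-in scaling, which put Tgfb3 at -2.22, -2.10 and -2.13.

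Tgfb1, the ligand most studied in renal fibrosis, was read by 10 spots of 1 probe, of which 8 to 10 per array were kept. Its log2 level was 0.52 in the control, and -0.56, -0.56 and -0.15 from the lowest to the highest dose. The standard deviation over its spots on an array was 0.04 to 0.06, which is a reading error within an array and not a spread between cultures. Tgfb1 was 2.12-fold below the control at 0.003% (-1.08 ± 0.07), 2.11-fold at 0.006% (-1.08 ± 0.07) and 1.59-fold at 0.009% (-0.67 ± 0.07). The lowest and the middle dose differed by 0.00 ± 0.07 and had no order. Before scaling, the mean signal of Tgfb1 was 259 in the control and 114, 108 and 110 at the 3 doses, so the last 2 doses were close before scaling. With normexp Tgfb1 was within 2-fold of the control at each dose (-0.83, -0.77 and -0.49).

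Tgfb2, the isoform with a low signal here, stayed close to the control. Its log2 level was -2.02 in the control and -2.17, -1.94 and -1.86 at the 3 doses, and no gap between levels next to each other in size reached 2 spot errors. The differences were -0.16 ± 0.24, 0.07 ± 0.24 and 0.15 ± 0.24. The last 2 had the opposite sign with quantile normalization (-0.05 and -0.09), array median scaling (-0.24 and -0.41) and spike-in scaling (-0.48 and -1.04).

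A contrast between 2 genes on the same array does not depend on a scaling factor of the array. Set against Tgfb2 in this way, Tgfb3 differed from the control by -1.88 ± 0.31 at 0.003% on the log2 scale, by -1.62 ± 0.31 at 0.006% and by -1.09 ± 0.31 at 0.009%. Set against Tgfb1, Tgfb3 stood at -0.95 ± 0.22, -0.47 ± 0.22 and -0.27 ± 0.22. By these values Tgfb3 parted from both other isoforms most at the lowest dose. Against Tgfb2, however, 0.003 and 0.006% lay within the errors given of each other and had no order. The contrast of Tgfb3 with Tgfb1 at 0.009% was within 2 spot errors of 0. With normexp, which changes more than a scaling factor, the contrast with Tgfb1 was -1.24, -0.79 and -0.62. The last of these was more than 2 of the spot errors given from 0. Set against Tgfb2, Tgfb1 was at -0.92 ± 0.25, -1.15 ± 0.25 and -0.82 ± 0.25.

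Gdf15, a distant member of the superfamily that acts on a brainstem receptor of the GDNF receptor family and is released by stressed cells, stood above its control. Its log2 level was -0.81, -0.42 and -0.12 at the 3 doses, well above background each time, while its control spot, at -5.76, was not. Against the lowest control signal well above background the bound was a Gdf15 signal at least 10.0-fold above the control at 0.003%, 13.2-fold at 0.006% and 16.2-fold at 0.009%. With normexp, which adds an offset to every spot, the differences were 1.46, 1.71 and 1.93 on the log2 scale. With spike-in scaling the bounds were 3.14, 3.17 and 2.83 on that scale, lowest at 0.009%. Before scaling, the Gdf15 signal was 95, 118 and 112 at the 3 doses, so the rise of the bounds over dose depended on the scaling. Neighbouring doses of H2O2 lay 0.40 ± 0.21 and 0.30 ± 0.21 apart, within 2 spot errors each. At 0.009%, 25 of 5832 named genes were further above the control than the bound of Gdf15. Of a list of inducers of Gdf15 and genes induced beside it under stress, 10 other genes were compared. At each dose 8 of them were at least 2-fold higher and none lower. Among all named genes 16.1%, 14.8% and 13.8% stood that far above the control. The list was drawn up with earlier results of these data known. With Gdf15, the median log2 difference of the list was 3.19, 3.24 and 3.70. The stress transcription factor Atf3 stood at 4.84, 5.41 and 5.71, and Klf4, a zinc finger transcription factor, at 4.38, 4.24 and 4.06. Trib3, a pseudokinase induced when unfolded proteins build up, was 22.7-fold, 24.5-fold and 16.0-fold above the control. Egr1, whose protein binds the GDF15 promoter in human cells, stood at 2.03, 3.17 and 4.03.

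**Figure D2:**
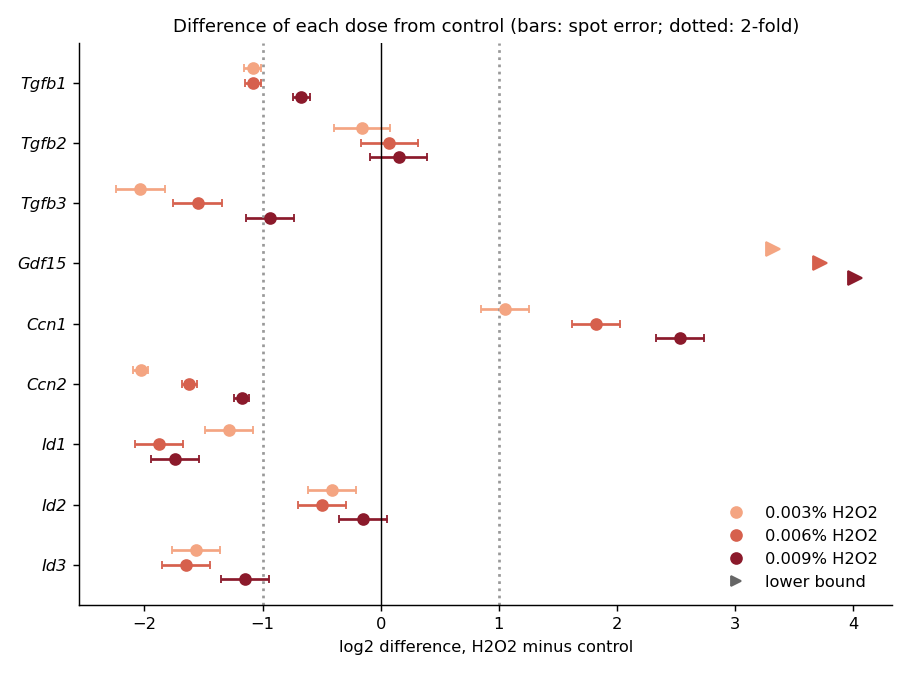
Log2 difference from control (horizontal axis) of the 9 genes (rows) at 0.003, 0.006 and 0.009% H2O2. Bars are spot errors, triangles lower bounds and dotted lines 2-fold. Gdf15 and Ccn1 lie to the right of the 2-fold line at every dose, and Id1, Id3 and Ccn2 to the left of it.

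The wider superfamily was read from a list of 32 ligands, of which 21 were on the array. Apart from the 4 genes above, 10, 11 and 12 ligands were compared at 0.003, 0.006 and 0.009%. Of these 4, 5 and 5 stood 2-fold or more above the control and none that far below it. Among all named genes, 16.1%, 14.8% and 13.8% stood that far above the control and 12%, 8.03% and 5.14% that far below it. The medians of these ligands were 0.32, 0.49 and 0.76. With the 4 genes above included, the median at 0.009% was 0.60 and turned to -0.59 with spike-in scaling. All 5 higher ligands at 0.009% had control levels of -3.53 or less. Gdf9, Nrtn and Lefty2 were not well above background in the control. They were compared only at doses where their own signal was, and so could not count as lower. The counts of higher ligands and the rise of their median rest in part on this rule. Gdf9, an oocyte factor, was at least 3.02-fold higher, Nrtn, a GDNF family ligand, at least 2.72-fold and Lefty2, an inhibitor of nodal signalling, at least 2.24-fold, while Amh, the anti-Müllerian hormone, was at 1.13. With spike-in scaling the bound of Lefty2 was lost and Amh was at -0.06, and with normexp the 4 lay between 0.60 and 0.70. Inhbe, which encodes a subunit of activin E, was the other one, at 1.95, 2.20 and 1.07, and the last turned with spike-in scaling (-0.12). With normexp Inhbe was at 0.59, 0.77 and 0.50. It was named after its values were seen. Bmp2 and Bmp4, ligands of the BMP branch also named after their values were seen, were at -0.25 and -0.57 at 0.009%, and -1.44 and -1.76 with spike-in scaling.

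Of 18 receptors listed, 14 were on the array. At least 2-fold higher were 4 of 9 compared at 0.003%, 2 of 9 at 0.006% and 2 of 10 at 0.009%. At least 2-fold lower were 1, 1 and 2. The shares of all named genes were 16.1%, 14.8% and 13.8% higher and 12%, 8.03% and 5.14% lower. Medians of the receptors were 0.41, -0.03 and -0.07, the last becoming 0.12 with normexp. Tgfbr2, the type II receptor that binds TGF-beta, was at 1.58, 0.88 and -0.15, the last at 0.03 with normexp, and Tgfbr1, its type I partner, was at 1.52 at 0.003% (0.52 with normexp) and not well above background at the higher doses. Both were named after their values were seen. The BMP receptor Bmpr1a was at 0.03, -0.43 and -1.01, its first value turning negative under quantile, array median and spike-in scaling alike. Acvr1, another type I receptor for BMPs, was at -1.04 at 0.003% and at least 2.92-fold and 2.8-fold lower at the next doses, or -0.31 and -0.26 on the log2 scale with normexp. Eng, the co-receptor endoglin, was at 1.67, 1.57 and 1.21 and within 2-fold with normexp (0.51, 0.47 and 0.54) and, at 0.009%, with spike-in scaling (0.02). Bmpr1b was at least 2.38-fold higher at 0.009%, a bound that shrank to 0.07 on the log2 scale with spike-in scaling.

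SMADs and their regulators had 9 of 22 listed genes compared, of which 3, 1 and 1 were at least 2-fold higher and none lower. Named genes as a whole had 16.1%, 14.8% and 13.8% higher and 12%, 8.03% and 5.14% lower. Smad5, which carries BMP signals, was at 1.69, 1.47 and 1.33, but at 0.63, 0.51 and 0.64 with normexp and at 0.14 with spike-in scaling at 0.009%. Smad7, the inhibitory SMAD that both branches induce, was at 0.48, 0.65 and 0.88, the last turning to -0.30 with spike-in scaling. Smad2, which carries TGF-beta and activin signals, was at 0.36, -0.02 (0.00 with normexp) and -0.77. Usp15, a deubiquitinase that acts on receptors and SMADs, was at 1.22, 1.00 and 0.41, its last value turning negative with array median and spike-in scaling. The list medians of 0.48, 0.65 and 0.22 also turned at 0.009% with array median scaling (-0.34) and spike-in scaling (-0.97).

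Extracellular regulators store, activate or trap the ligands. Of 30 listed, 0 of 12, 1 of 12 and 3 of 13 compared stood 2-fold or more above the control. At the same doses 3, 2 and 0 stood that far below it. The shares over all named genes were 16.1%, 14.8% and 13.8% above and 12%, 8.03% and 5.14% below. Medians of the regulators were -0.27, -0.20 and 0.39, the last turning negative with quantile (-0.15), array median (-0.17) and spike-in scaling (-0.80). Ltbp1, which anchors latent TGF-beta in the matrix, was at -1.69, -0.93 and -0.25, and Furin, the protease that cleaves the TGF-beta precursor, at -1.02, -1.11 and -0.92. Both were named after their values were seen. The BMP antagonist Grem1 was at 0.05, 0.42 and 1.27, its first value turning negative under these 3 scalings and its second with spike-in scaling. With normexp Grem1 was at 0.59 at 0.009%. Fstl3, which binds activin, was at 0.31, 0.72 and 0.97, the last at -0.22 with spike-in scaling. Bounds put Sostdc1, another BMP antagonist, at least 3.13-fold and Itgb6, a subunit of an integrin that frees latent TGF-beta, at least 2.38-fold above the control at 0.009%, but at 0.81 and 0.67 on the log2 scale with normexp.

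Ccn1 and Ccn2 encode proteins of the same domain plan, and their signals lay on opposite sides of the control. Ccn1 had a log2 level of 2.26 in the control and 3.31, 4.08 and 4.80 from the lowest to the highest dose. Each dose exceeded the one below it by more than 2 spot errors, the smallest step being 0.71 ± 0.20. Ccn1 was 2.07-fold (1.05 ± 0.20), 3.54-fold (1.83 ± 0.20) and 5.81-fold (2.54 ± 0.20) above the control. A second, dimmer probe of Ccn1 stood at 1.09, 1.85 and 2.39. With spike-in scaling the differences were 0.86, 1.28 and 1.35, so that the highest dose stood close to the middle one.

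Ccn2 was read by 10 spots of 1 probe on every array. Its log2 level was 7.62 in the control and 5.59, 6.00 and 6.44 at the 3 doses, with a standard deviation over spots of 0.05 to 0.07. The control was the highest, 0.003% was the lowest, and the next doses stood above it by steps of 0.41 ± 0.06 and 0.45 ± 0.06. Ccn2 was 4.09-fold (-2.03 ± 0.06), 3.07-fold (-1.62 ± 0.06) and 2.26-fold (-1.18 ± 0.06) below the control. That order of the doses did not hold under spike-in scaling, which put Ccn2 at -2.22, -2.17 and -2.36.

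On the same array, Ccn1 against Ccn2 was above its control ratio by 3.08 ± 0.21 at 0.003%, 3.45 ± 0.21 at 0.006% and 3.71 ± 0.21 at 0.009% on the log2 scale, or 8.47-fold, 10.9-fold and 13.1-fold on the linear scale. This contrast is the same under array median and spike-in scaling, and was 3.43, 3.84 and 4.18 with quantile normalization. Of the other CCN genes, Ccn5, which lacks the C-terminal domain of the family, was at -2.07, -1.58 and -0.92, and Ccn4, a target of WNT signalling, at -0.48, -0.82 and -0.92. Ccn5 was thus close to Ccn2 and Tgfb3 at each dose, and of the 4 CCN genes compared Ccn1 alone was above the control, under all 4 scalings.

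The promoter windows of Ccn1 and Ccn2 are shown because these related genes diverged, and that of Tgfb3 because its values lay beside those of Ccn2. Each runs from 250 bases before to 50 after the RefSeq start on the GRCr8 build, 5′ to 3′ on the strand of the gene. Capitals mark GGAATG, bound by TEAD factors, and CAGAC, a core bound by SMADs, on either strand. Ccn1 lies at chr2:237225640-237225939, minus strand, Ccn2 at chr1:22624565-22624864, minus strand, and Tgfb3 at chr6:111456897-111457196, minus strand.
Ccn1: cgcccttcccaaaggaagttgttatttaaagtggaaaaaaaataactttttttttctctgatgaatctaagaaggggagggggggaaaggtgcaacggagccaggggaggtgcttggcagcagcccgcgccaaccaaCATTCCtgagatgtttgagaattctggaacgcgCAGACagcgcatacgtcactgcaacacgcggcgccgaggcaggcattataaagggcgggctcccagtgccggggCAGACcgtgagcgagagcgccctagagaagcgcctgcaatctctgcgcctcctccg
Ccn2: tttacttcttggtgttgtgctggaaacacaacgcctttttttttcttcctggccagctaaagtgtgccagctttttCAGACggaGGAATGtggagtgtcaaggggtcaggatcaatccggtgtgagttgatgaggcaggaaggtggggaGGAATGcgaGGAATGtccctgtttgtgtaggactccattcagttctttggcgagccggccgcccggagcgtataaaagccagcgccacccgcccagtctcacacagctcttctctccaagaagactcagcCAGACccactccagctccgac
Tgfb3: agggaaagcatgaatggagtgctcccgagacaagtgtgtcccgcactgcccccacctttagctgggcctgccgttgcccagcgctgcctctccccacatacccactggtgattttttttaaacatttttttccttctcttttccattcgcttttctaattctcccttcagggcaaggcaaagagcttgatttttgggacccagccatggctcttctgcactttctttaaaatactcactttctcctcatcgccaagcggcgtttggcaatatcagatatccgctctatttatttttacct
The Ccn2 window held GGAATG 3 times, starting at -166, -101 and -92 from the start, and CAGAC at -174 and 30. The Ccn1 window held GGAATG once, on the opposite strand at -113, and CAGAC at -80 and -6. Tgfb3 had neither. Of 33465 promoter windows, 14.2% held GGAATG and 50.1% held CAGAC. A match is a string of letters and not a site shown to be bound.

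Id1, the ID gene with the lowest values against control at the 2 higher doses, had a log2 level of 5.10 in the control and 3.82, 3.22 and 3.36 at the 3 doses. The control was highest, the lowest dose came next, and the 2 higher doses lay 0.14 ± 0.20 apart, within 2 spot errors. Id1 was 2.44-fold (-1.29 ± 0.20), 3.68-fold (-1.88 ± 0.20) and 3.34-fold (-1.74 ± 0.20) below the control. At 0.009%, 29 of 5832 named genes were lower relative to the control than Id1. Id3 had a log2 level of 4.97 in the control and 3.41, 3.32 and 3.82 at the 3 doses, and was 2.95-fold (-1.56 ± 0.20), 3.13-fold (-1.65 ± 0.20) and 2.22-fold (-1.15 ± 0.20) below the control. Its 2 other probes gave -1.64, -1.77 and -1.31, and -1.63, -1.68 and -1.22. By all 3 probes Id3 stood nearest to the control at 0.009%, and 0.003 and 0.006% lay within 2 spot errors of each other and had no order. Set against Id3 on the same array, Id1 was at 0.27 ± 0.29, -0.23 ± 0.29 and -0.59 ± 0.29. At 0.003 and 0.006% the 2 genes were thus within 2 spot errors of each other.

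Id2, which is expressed in many epithelia, differed little. Its log2 level was 2.35 in the control and 1.93, 1.85 and 2.19 at the 3 doses, and levels next to each other in order of size lay within 2 spot errors throughout. The differences were -0.41 ± 0.20, -0.50 ± 0.20 and -0.15 ± 0.20. A dimmer probe gave -0.25, -0.09 and 0.20, the last of the opposite sign, and spike-in scaling -0.60, -1.05 and -1.34. Set against Id2 on the same array, Id1 was at -0.88 ± 0.29, -1.38 ± 0.29 and -1.59 ± 0.29.

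Id4, the remaining gene of the family and not one of the 9, was above the control, with a log2 level of 0.19 there and 1.04, 1.54 and 2.10 at the 3 doses. Its differences were 0.85 ± 0.20, 1.35 ± 0.20 and 1.91 ± 0.20, and its second, dimmer probe stood at 1.66, 2.14 and 2.99. With spike-in scaling Id4 was at 0.66, 0.80 and 0.72, within 2-fold at each dose. The contrast of Id4 with Id1 on the same array was 2.14 ± 0.29, 3.23 ± 0.29 and 3.65 ± 0.29 on the log2 scale, so the pair parted by 12.5-fold at 0.009%. Among the partners of ID proteins, the E protein genes Tcf12 and Tcf4 were at -0.39, -0.91 and -1.38, and at -0.94, -1.10 and -0.69. Hes1, a helix-loop-helix repressor induced by Notch, was at 0.79, 1.12 and 1.22, and within 2-fold with normexp (0.42, 0.60 and 0.73) and with spike-in scaling (0.60, 0.57 and 0.03).

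The windows of Id1 and Id3 are shown because these genes were low together, with the same letters in capitals. Id1 lies at chr3:161671314-161671613, plus strand, and Id3 at chr5:153656041-153656340, plus strand, on GRCr8.
Id1: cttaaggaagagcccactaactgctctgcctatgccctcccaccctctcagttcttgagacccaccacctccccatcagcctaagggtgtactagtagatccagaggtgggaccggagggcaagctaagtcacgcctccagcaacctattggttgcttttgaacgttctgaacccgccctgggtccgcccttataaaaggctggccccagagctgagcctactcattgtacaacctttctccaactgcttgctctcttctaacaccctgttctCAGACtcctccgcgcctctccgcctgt
Id3: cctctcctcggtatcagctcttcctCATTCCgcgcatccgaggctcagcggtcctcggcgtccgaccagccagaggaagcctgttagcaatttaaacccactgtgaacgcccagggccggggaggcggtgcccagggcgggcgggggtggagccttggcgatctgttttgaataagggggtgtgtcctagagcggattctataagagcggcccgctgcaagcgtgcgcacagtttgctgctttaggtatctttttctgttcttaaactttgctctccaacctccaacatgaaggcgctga
Id1 held CAGAC at 24, after the start, and no GGAATG. Id3 held GGAATG on the opposite strand at -225 and no CAGAC. The palindrome GGCGCC, a core bound by BMP SMADs, was in neither window, and was found in that of Ccn1 among the 9 genes, in that of Id4, and in 11% of all windows. No window of the 9 genes held the AP-1 motif TGANTCA, the cAMP response element TGACGTCA, the EGR motif GCGTGGGCG or a CArG box. Of all windows, 7.33%, 1.83%, 0.544% and 1.64% held these in turn. Sequence outside the windows was not searched. The shorter element TGACG, which the full cAMP response element contains, was in Ccn1 and Tgfb1 (21.2% of all windows), and the heat shock element GAANNTTC in Id1 (8.59%). The antioxidant response element TGACNNNGC, which shares its first letters with TGACG, was in Id1 and Gdf15 (12.1%), and the E-box CANNTG in 5 of the 9 (72.1%). Gdf15 has 2 annotated starts, and both windows were searched.

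**Figure D3:**
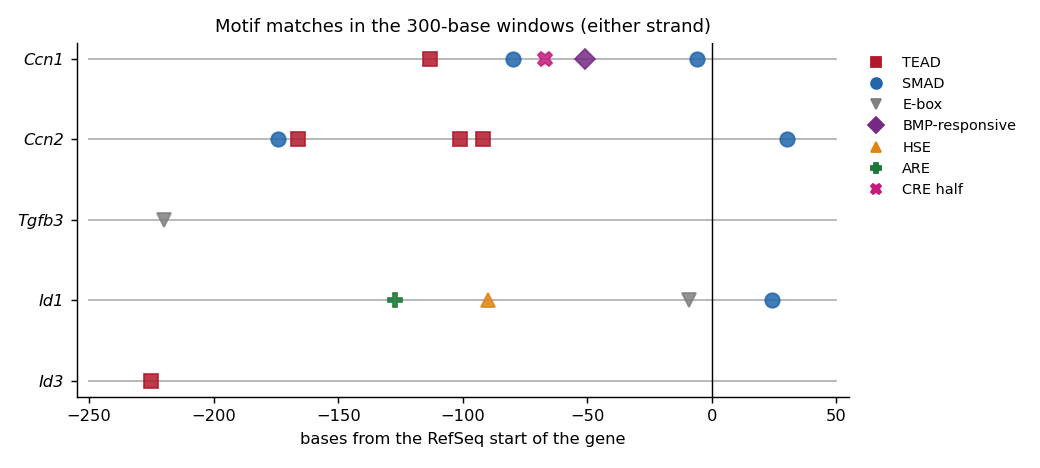
Matches of 7 motifs in the promoter windows of Ccn1, Ccn2, Tgfb3, Id1 and Id3 (rows), by distance in bases from the RefSeq start (horizontal axis). Each symbol is 1 match on either strand, with HSE for the heat shock, ARE for the antioxidant response and CRE for the cAMP response element. Ccn2 carries 3 TEAD matches and Ccn1 and Id3 1 each.

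Target genes of the pathways were mixed. Ccn2 apart, 18, 18 and 17 TGF-beta targets were compared. Of these 3, 5 and 4 were at least 2-fold higher and 5, 5 and 3 at least 2-fold lower. Among all named genes 16.1%, 14.8% and 13.8% were that much higher and 12%, 8.03% and 5.14% that much lower. The medians of the targets were 0.10, 0.17 and 0.02. With Ccn2 the medians were 0.09, 0.13 and -0.08, and the first 2 turned negative under quantile, array median and spike-in scaling. Fn1, which encodes fibronectin, was at -1.88, -1.73 and -1.30, and Timp3, a matrix-bound protease inhibitor, at -2.12, -1.81 and -1.40. Cdkn1a, the cell cycle inhibitor p21 that p53 also induces, was at 4.09, 4.09 and 3.70, and Angptl4, a secreted lipase inhibitor, at 1.64, 1.81 and 1.52. Angptl4 was within 2-fold with normexp (0.79, 0.92 and 0.87) and, at 0.009%, with spike-in scaling (0.33), and Timp3 was at -0.60 with normexp at 0.009%.

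The collagen genes Col1a2 and Col3a1, also TGF-beta targets named after their values were seen, were at -1.96, -1.35 and -0.51, and at -1.74, -1.22 and -0.70. Both are fibroblast markers as well. Of 8 fibroblast markers on the array, 5 were well above background on each array, with a summed level of 77.4, 40.1, 49.0 and 61.7 times the 75th percentile at 0, 0.003, 0.006 and 0.009%. Thy1, Lum and Dcn were not well above background on any array. The sum was mostly Vim and Col3a1, at log2 levels of 5.40 and 4.72 in the control, while Tagln was at -0.35, 0.21 and 0.59. Relative to the 75th percentile, Tgfb3, Ccn2 and this sum were each lowest at 0.003%. With spike-in scaling Ccn2 was lowest at 0.009% (-2.36). By its label each culture held 1 line, and the part of any fibroblast-like cells in the values of Tgfb3 and Ccn2 was not tested. Of 4 endothelial markers 1 was well above background on each array, with a summed level of 0.147, 0.245, 0.331 and 0.403. Of 8 macrophage markers 5, 5, 4 and 5 were, with a summed level of 42.3, 27.4, 22.8 and 23.8, and Itgam was not on any array. That sum was mostly Cd14, at log2 levels of 5.31, 4.60, 4.21 and 4.25, while the median difference of the macrophage markers compared was 0.22, 0.31 and 0.88. The median difference of the fibroblast markers was -1.74, -1.22 and -0.51. Krt18, Aqp1, Krt8, Cd14, Vim and Tagln were named after their values were seen.

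Apart from Id1, Id2 and Id3, 8, 7 and 7 BMP targets were compared. Of these 3, 3 and 4 were at least 2-fold higher and none lower, Id4 and Grem1 among the 4. The 4 higher at 0.009% became 2 with array median scaling, quantile normalization or normexp, and 1 with spike-in scaling. The shares of all named genes were 16.1%, 14.8% and 13.8% higher and 12%, 8.03% and 5.14% lower. The same shares stand beside the YAP and TEAD counts below. Hamp, which encodes the iron hormone hepcidin, was at 2.93, 3.61 and 4.01, against -1.74 for Id1 at 0.009%. With normexp Hamp was at 1.29, 1.77 and 2.05. Gata3, a transcription factor of the nephric duct, was at least 2.77-fold higher at 0.009%, or at 0.70 on the log2 scale with normexp. Of 9, 9 and 10 YAP and TEAD targets or partners compared, apart from Ccn1, Ccn2 and Tgfb2, 2, 3 and 2 were at least 2-fold higher and 1, 0 and 0 at least 2-fold lower. Gadd45b, a stress sensor, was at 1.78, 1.87 and 1.91, Edn1, the vasoconstrictor endothelin, at 1.16, 1.47 and 1.77, and Ankrd1, a target often read beside Ccn1 and Ccn2, at -0.12, -0.73 and -0.69. With spike-in scaling Edn1 was within 2-fold at each dose (0.97, 0.92 and 0.58), as was Gadd45b at 0.009% (0.72). Axl, a receptor tyrosine kinase, was at least 1.90-fold higher at 0.009%, a bound lost with spike-in scaling.

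**Figure D4:**
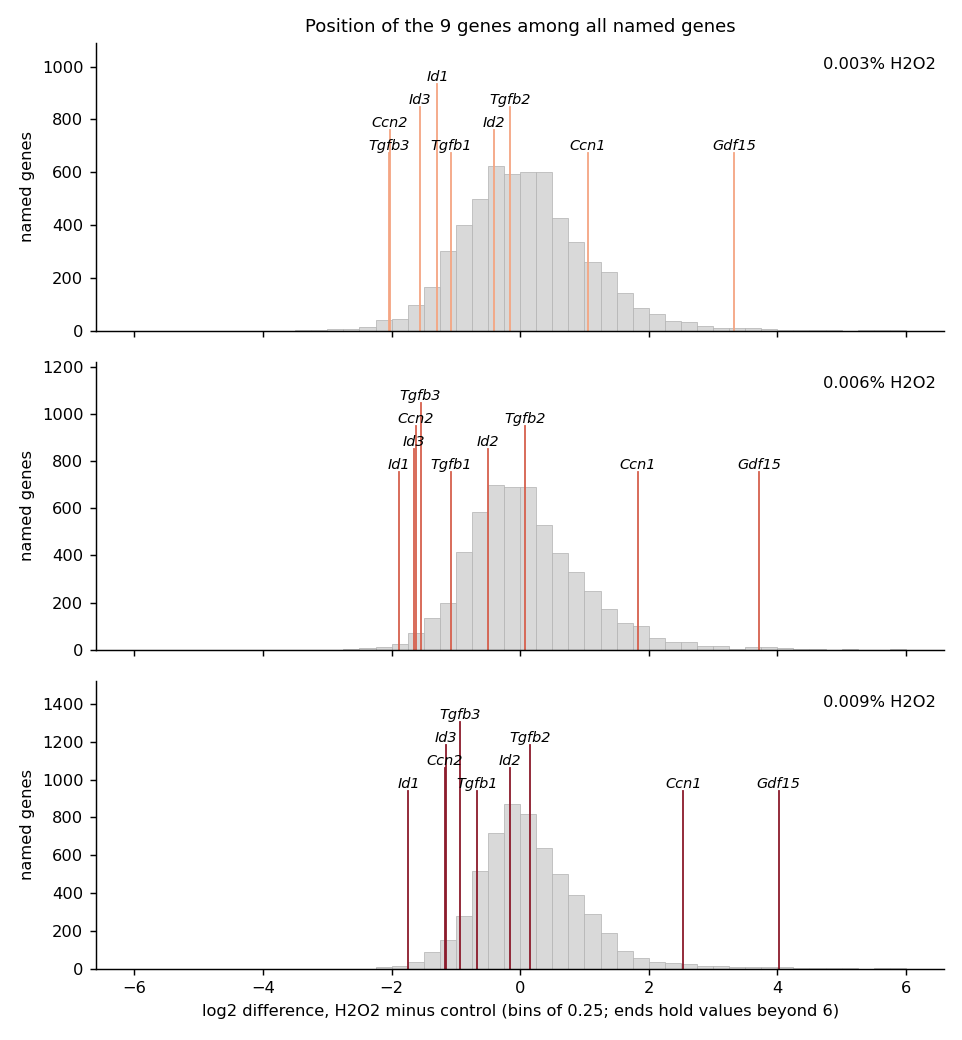
Histograms of the log2 difference from control of all named genes (bars, number of genes per bin of 0.25) at 0.003, 0.006 and 0.009% H2O2, with the 9 genes as vertical lines. Gdf15 lies in the right tail at each dose, and Id1, Id3, Ccn2 and Tgfb3 on the left side.

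A straight line over the 4 doses was fitted with limma to 23767 features. None of the 9 genes passed at a Benjamini-Hochberg adjusted p of 0.05, nor did any feature (0%). At an unadjusted p under 0.05 were 3 of the 9 genes and 13.7% of the features. The steepest of the genes measured on all arrays was Ccn1, with a slope of 0.84 ± 0.12 (log2 per 0.003% H2O2, standard error), an unadjusted p of 0.00171 and an adjusted p of 0.258 in limma. Id1 had a slope of -0.58 ± 0.19 (adjusted p = 0.335 in limma), and Gdf15, whose control spot was not well above background, 1.73 ± 0.57 (adjusted p = 0.334 in limma). Tgfb3 and Ccn2, low at the first dose and less so after it, had slopes of -0.23 ± 0.33 and -0.31 ± 0.32.

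For each gene well above background on all 4 arrays, the named genes most like it were found among 4986 by the largest gap between their log2 differences over the 3 doses. For Tgfb3 the nearest was Ccn5, with a largest gap of 0.03, then Bcam (0.10) and Slc2a5 (0.13). For Ccn2 they were Mmp28 (0.05), Sulf2 (0.10) and Mcam (0.11), and for Tgfb1 Taf6 (0.03), Cfap410 (0.04) and Abtb1 (0.05). The nearest to Ccn1 were Cst6, Tnnc2 and Pyroxd2, with gaps of 0.18 to 0.19, and to Id1 Slc11a2, Sh3bp4 and Dpysl3, with 0.21 to 0.25. Ccn1 and Id1 had no gene as near as Tgfb3 and Tgfb1 had, but the spot error of a difference was 0.20 for Ccn1, Id1 and Tgfb3. Gaps of this size do not set the genes apart. For Id3 they were Cxxc5 (0.11), Adgrl1 (0.11) and Slc27a1 (0.12), for Id2 Snx24, Pnoc and Pcgf1 (0.03 to 0.05), and for Tgfb2 Serpinb1a, Ddost and Serpinh1 (0.06 to 0.08).

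The choice of scaling bears on the shape over dose more than on the sign. Relative to the 75th percentile, the median of all features shifted by -0.15, -0.25 and -0.53 under array median scaling, by -0.19, -0.49 and -1.15 under spike-in scaling and by -0.15 at 0.009% under quantile normalization. The differences of Ccn1, Gdf15, Ccn2, Tgfb1, Tgfb3, Id1, Id2 and Id3 kept their sign at each dose under these 3 and normexp. Tgfb2 turned negative at 0.006 and 0.009% under these 3 but not with normexp. Among the genes on the lists apart from the 9, the direction moved as well. At 0.009%, 27 of them were at least 2-fold higher and 6 lower, against 9 and 40 with spike-in scaling. Spike-in scaling put Tgfb3 at -2.22, -2.10 and -2.13, Tgfb1 at -1.27, -1.63 and -1.86, Id1 at -1.47, -2.43 and -2.93, and Id3 at -1.75, -2.20 and -2.34. Relative to the spike-ins, Tgfb1, Id3 and Ccn2 thus stood further below the control at 0.009% than at 0.003%, and relative to the 75th percentile less far. The 4 scalings cannot be told apart by these data, since the amount of RNA per culture is not given in the sources used here.

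**Figure D5:**
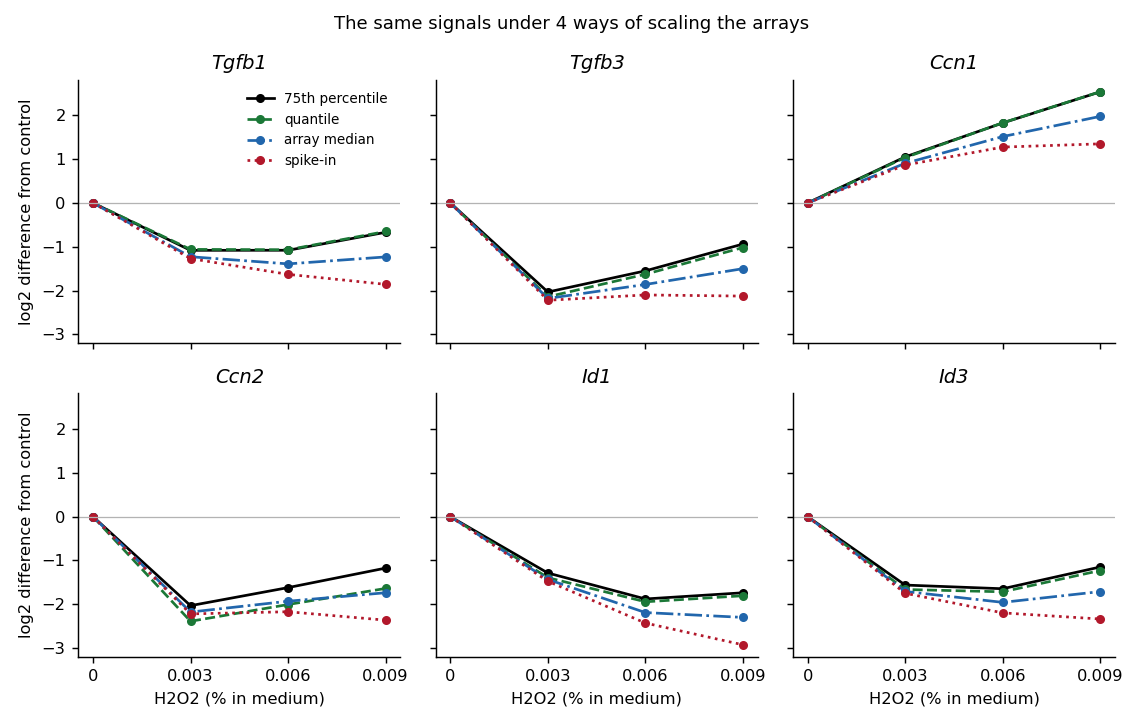
Log2 difference from control (vertical axis) over dose of H2O2 (horizontal axis) for 6 genes, with arrays scaled to the 75th percentile, by quantiles, to the array median or to spike-ins. The control is 0 by construction. All lines of Ccn1 lie above 0 and all those of the other 5 genes below it.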

How the data were processed

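RNA of 4 cultures was read on 1-colour Agilent arrays. Per the file headers, the authors scanned array design 014879 and read it with Feature Extraction 10.7.3.1 of Agilent under protocol GE1_107_Sep09, whose processed signal is a linear intensity after background subtraction and detrending. The deposited value table is a linear ratio: in 100% of probes it equalled the mean signal over the median of the array's spots, to within 1e-06 of the value; its columns had medians of 0.962, 0.955, 0.965 and 0.972. It served as an alternative.

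Outlier spots were left out, and log2 signals were averaged per probe and scaled to the 75th percentile. Of 41007 probes used, 10834 (26.4%) were named through RefSeq accessions in a table of the GRCr8 assembly. A gene was compared where it was well above background on at least 1 of both arrays. A gene that passed only after H2O2 could thus count as higher but not lower, and those passing only in the control the reverse. This held for the lists and for all named genes alike. For a signal not well above background, the array's lowest signal that was, or its own where higher, stood in, which gives a bound ("at least"). The trend used limma 3.58.1 in R 4.3.3 (2 residual degrees of freedom) and was tested on simulated data. Normexp used an offset of 50 on median spot signals, since the files used here hold no mean spot signal. Named genes are the 9 genes, for each list the 4 genes furthest from the control at 0.009%, and the 3 nearest genes of each member. The members and lists were chosen with earlier results of these data known. Having 1 array per dose limits all precision, and protein sequences were not used here.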

Additional observations from a re-analysis of the deposited data

How the results depend on the processing

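No difference of at least 2-fold among the 9 genes had the opposite sign under any alternative run: array median, quantile and spike-in scaling, normexp, the authors' deposited table, outlier spots kept, the mean over probes, no filter on dim probes, and only genes well above background on both arrays, which leaves Gdf15 out. The number of the 9 genes at least 2-fold above the control was 2 at each dose. At 0.003% it was 1 with array median and spike-in scaling, normexp and the deposited table, and with both arrays above background it was 1 at 0.003, 0.006 and 0.009%, since Gdf15 was then not compared. The number at least 2-fold below the control at 0.009%, 3, was 5 with array median scaling and the deposited table and 7 with spike-in scaling. Of 188 genes on the lists apart from the 9, 116 were on the array and 86, 86 and 89 were compared at the 3 doses. At 0.003%, 26 of the 86 were at least 2-fold higher, and 11 with normexp. At 0.006%, 27 were higher and 10 lower, against 14 and 22 with spike-in scaling, and 12 were higher with normexp. At 0.009%, 27 were higher and 6 lower, against 14 and 20 with array median scaling and the deposited table, and 9 and 40 with spike-in scaling, while 17 were higher with quantile normalization and 12 with normexp. Id2 at 0.009% was at 0.02 with the mean over probes, against -0.15. The trend in limma called 0 of the 9 genes and 0 features of all tested under every alternative, those on the log of dose and without the control array included, so this count of 0 says nothing on stability. Weak control signals limit Gdf15, Inhbe, Gdf9, Nrtn, Amh, Lefty2, Smad5, Eng, Gata3, Sostdc1, Itgb6, Bmpr1b, Angptl4 and Hamp, whose differences were smaller with normexp. Grem1 was likewise smaller at 0.009%, and Krt18 also had a weak control signal.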
